A study of Danio rerio with 2 samples.

Results

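Myelin-gene barcodes were the droplets of zebrafish pituitary that carried messages of several myelin genes, and they were proposed as oligodendrocytes, the myelin-forming glia of the central nervous system. A barcode was chosen when it had at least 200 genes detected, at most 20% of its unique molecular identifiers (UMIs, each standing for 1 captured mRNA molecule) from mitochondrial genes, and at least 1 UMI of each of 3 or more of 7 myelin and glial genes, among them mbpb, plp1b, cldnk, cd59, gldn and zwi. The rule found 206 barcodes among the 8629 that passed the gene and mitochondrial limits, of 8991 in all. Of these, 105 came from the WT library (2.07% of its kept barcodes, 95% exact Clopper-Pearson interval 1.70 to 2.50) and 101 from the mutant library (2.84%, 2.32 to 3.44). Since these 7 genes chose the barcodes, their levels are a description of the choice.

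The study asked what loss of the peptide hormone cholecystokinin does along the axis from brain to gonad, and profiled pituitaries of 6-month-old male zebrafish (AB strain) by droplet single-cell RNA-seq. One library came from WT fish and the other from cck1-/-;cck2-/- fish (labelled CCK1/2-KO, called mutant here), which lack both cholecystokinin genes after CRISPR/Cas9 editing. The methods give 30 fish per group, dissociated with trypsin, EDTA and DNase II. With 1 library per group there is no replicate check, so no p-value is given, genotype cannot be told apart from the library, and all intervals cover counting error only.

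Myelin is a stack of glial membrane wrapped around axons, made by oligodendrocytes in the brain and spinal cord and by Schwann cells in peripheral nerves. Both cell types share many myelin proteins, such as myelin basic protein and proteolipid protein. What separates them is mainly their regulators. Olig1, Olig2, Nkx6.2 and Myrf mark the oligodendrocyte lineage, whereas Egr2 (Krox20) and Pou3f1 (Oct6) drive Schwann cell myelination, and Sox10 serves both. The neurohypophysis of the pituitary holds the endings of hypothalamic axons, and the gland also receives blood vessels with their nerves.

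The chosen barcodes carried either nearly all genes of the rule or barely enough of them. In WT, 27 barcodes held all 7 genes, 28 held 6, 16 held 5, 5 held 4 and 29 held just 3. In the mutant the numbers were 33, 27, 8, 11 and 22. The distribution thus had 2 ends, with few barcodes at 4 genes in WT. At the edge of the rule, the 51 barcodes with 3 genes had a median of 0.44% of their UMIs from the 7 genes at a median depth of 1752 UMIs, and the 321 barcodes just outside, with 2 genes, had a median of 0.107% at a median depth of 13576 UMIs. Those with all 7 genes had a median of 3.37% at 4172 UMIs.

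**Figure D1:**
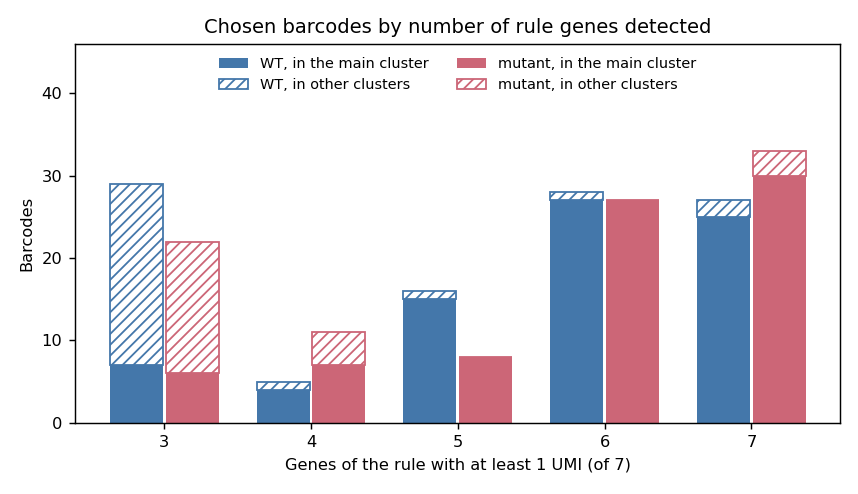
Number of chosen barcodes (vertical axis) by the number of the 7 rule genes with at least 1 UMI (horizontal axis), for WT and mutant; filled parts lie in the main cluster and hatched parts in other clusters. Barcodes with 5 or more genes lie almost all in the main cluster, while of the 51 with 3 genes 13 do.

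When all kept barcodes were clustered on genes other than the 7 of the rule, the pituitary hormone genes and mitochondrial genes, 156 of the 206 fell into 1 of 25 clusters, 78 from each library. This main cluster held 195 barcodes in all. The 156 made up 1.54% of kept WT barcodes (interval 1.22 to 1.92) and 2.19% of kept mutant barcodes (1.74 to 2.73), so the intervals of the libraries overlapped. Their depth was alike in both libraries, with a median of 2458 UMIs and 897.5 genes in WT and 2424 UMIs and 892 genes in the mutant. UMIs of the 7 genes made up 3.46% of all their UMIs in WT and 2.91% in the mutant. None of the 156 had 5% or more of its UMIs from hormone genes.

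The other 50 chosen barcodes, 27 from WT and 23 from the mutant, were scattered over 13 clusters. Of these, 38 had exactly 3 rule genes and 23 had at least 5% hormone UMIs. The largest group of them, 15 barcodes, lay in a cluster rich in gh1, the growth hormone gene. They were deep, with a median of 7940 UMIs, but held a median of 11 UMIs of the rule genes against 63 in the main cluster. The 7 genes made up 0.185% of their UMIs in WT and 0.247% in the mutant. These 50 barcodes held 53.0% of all UMIs of the 206, so sums over all 206 mix both kinds. For this reason the results below are for the 156 barcodes of the main cluster unless all 206 are named. Ratios between the libraries over all 206 are described together near the end.

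**Figure D2:**
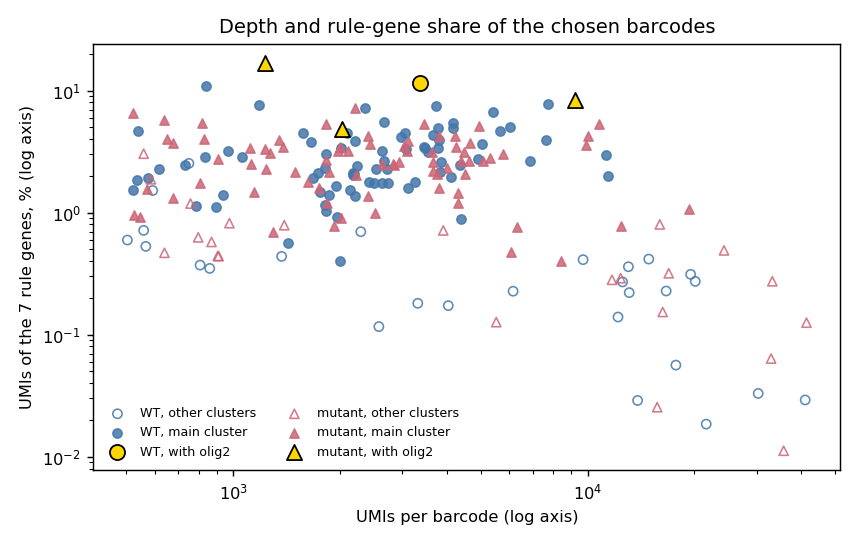
Total UMIs of each chosen barcode (horizontal, log axis) against the percentage of its UMIs from the 7 rule genes (vertical, log axis); circles are WT, triangles mutant, filled points lie in the main cluster, open points in other clusters, and large yellow points hold an olig2 UMI. Main-cluster points run from 0.4% to 16.7%, and open points reach down to 0.0112% at high depth.

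Of the 7 genes, plp1b was the one most often found in hormone barcodes. It encodes a proteolipid protein of the myelin membrane, but it was also read in gh1-rich barcodes that were not chosen: in the cluster that held 15 of the scattered barcodes it stood at 951.5 CPM (UMIs per 1000000 UMIs) in 163 WT barcodes and 2847 CPM in 149 mutant barcodes, with a UMI in 156 and 147 of them. Of the 1277 barcodes with at least 5% hormone UMIs, 815 had at least 1000 UMIs. Of these, 36.8% were expected to hold a plp1b UMI after thinning to 1000 UMIs. The share for mbpa, a myelin basic protein gene outside the rule, was 0.67% in the same barcodes. In all WT hormone barcodes there were 111 plp1b UMIs per mbpa UMI, against 0.342 in the WT main-cluster barcodes, so the 2 kinds of barcode held the genes in different ratios. Of the 8629 kept barcodes, a set number of 307 with the highest doublet scores by Scrublet were marked. Among the 206 chosen barcodes 14 were marked, 13 of them in the main cluster.

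The label was set beside the regulators, which the rule had not used. The clustering had not left them out, so their levels in the main cluster may partly follow from that choice. Of the regulators of the oligodendrocyte lineage, olig1, olig2, myrf and nkx6.2 were absent or nearly so. Of olig1 there was no UMI in the 156 main-cluster barcodes, which allows up to 6.08 CPM and up to 1.92% of barcodes with a UMI. Of olig2 there were 4 UMIs in WT and 9 in the mutant, of myrf 4 and 3, and of nkx6.2 3 and 1. All of these UMIs lay in the same 4 barcodes. Olig1 had no UMI in these 4 either, so its absence does not set the other barcodes apart from them. Of the 18 oligodendrocyte transcription factors matched, 6 were at 0 in the main cluster, and 6 had a UMI in at least 10% of barcodes of either library; those 6 were sox10, znf536, tcf7l2, zeb2a, zeb2b and id2a, which other neural and non-neural cells also use. Of 16 oligodendrocyte precursor genes matched, 8 were at 0. Their summed level was 165 CPM in WT and 152 in the mutant, below the 334 and 412 CPM of the barcodes not chosen.

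Some genes known from Schwann cells and the neural crest were present instead. Of the 14 matched genes of their list, rule genes included, 7 had a UMI in at least 10% of main-cluster barcodes of either library and 1 was at 0. Of the 13 matched genes outside the rule, only 6 had at least 50 UMIs over both libraries. Prx, erbb3b, dhh, ngfrb, mitfa, ednrba and pmp22a, of the same list, had fewer. Pmp22a stood at only 17.4 CPM in WT and 26.6 in the mutant. Egr2b stood at 482 CPM (interval 397 to 580) in WT and 354 CPM (286 to 434) in the mutant, against 6.73 and 6.12 CPM in barcodes not chosen. Egr2b is also in the immediate early and heat shock list, which was high in these barcodes (50847 and 51759 CPM, against 22673 and 35819). What part of its level goes with that list was not tested. Pou3f1 stood at 304 CPM in WT and 464 in the mutant, against 1.43 and 1.58 CPM. The calcium-binding protein gene s100b stood at 617 and 628 CPM, against 13.6 and 3.35 CPM. All 3 genes were thus far above the pooled rest of their own library in both libraries. S100b was also read in barcodes not chosen of a cluster with lhb and fshb among its leading genes. It stood there at 218.7 CPM in WT, in 53 of 106 barcodes, and at 95.9 CPM in the mutant. After thinning to 1000 UMIs, which 132 of the 156 barcodes reach, 31.3% of main-cluster barcodes were expected to hold an egr2b UMI, 25.5% a pou3f1 UMI and 38.3% an s100b UMI. In hormone barcodes, at a median depth of 2204 UMIs against 2430 here, the thinned shares were 0.245% for egr2b and 1.89% for s100b, and unthinned 0.0783% held a pou3f1 UMI against 41.7% in the main cluster. The adhesion receptor gene adgrg6, which Schwann cells need in zebrafish to start myelination, stood at 347 CPM in WT and 224 in the mutant. The neural crest gene foxd3 stood at 99.9 and 190 CPM, and sox10 at 439 and 396 CPM.

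Counted by barcode, 137 of the 152 main-cluster barcodes without olig2 held at least 1 UMI of egr2b, pou3f1, foxd3, gldn or s100b, 71 of 77 in WT and 66 of 75 in the mutant. Gldn is 1 of the 7 genes of the rule. Of the other genes, egr2b, pou3f1 or s100b was found in 123 barcodes, and egr2b or pou3f1 in 103. No barcode held both a gene of this set and any of olig1, olig2, nkx6.2 and myrf, and 15 held neither. Nkx2.2a, another gene of the oligodendrocyte transcription factor list, went the other way. The few main-cluster barcodes with an nkx2.2a UMI, 1 each, had no olig2 and held a gene of this set. The 13 matched genes of the Schwann and neural crest list that the rule had not used summed to 2419 CPM in WT and 2348 in the mutant, against 124 and 160 CPM in barcodes not chosen. All 6 of them with enough UMIs to test were at least 2-fold above the barcodes not chosen in both libraries, where 43.2% of all 1305 genes tested were. The oligodendrocyte transcription factor list, which shares sox10, gave the same count, 6 of 6 tested. It summed to 3539 CPM in WT and 3216 in the mutant, against 227.5 and 283 CPM in barcodes not chosen. These counts therefore do not separate the cell types. The scarcity of olig2, nkx6.2 and myrf, with egr2b or pou3f1 in 103 of the 152, goes against the oligodendrocyte label for most of these barcodes. Prx, erbb3b and dhh of the Schwann and neural crest list were too scarce to test, and egr2b is also in the immediate early list. The barcodes are called by their rule here.

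**Figure D3:**
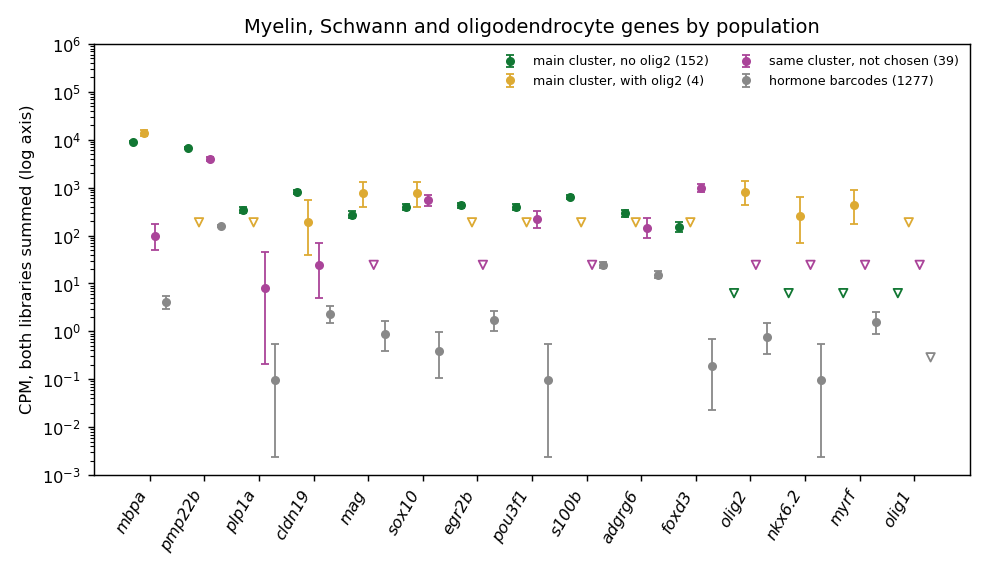
Level in CPM (vertical, log axis; both libraries summed) of 15 myelin and regulator genes in 4 populations, named with their number of barcodes; points are values with 95% exact Poisson intervals, and open triangles mark genes without a UMI at the level that 3 counts would give. Egr2b, pou3f1 and s100b stand between 402 and 643 CPM in the 152 barcodes without olig2 and have no UMI in the 4 with olig2. Nkx6.2 and myrf show the reverse, and olig2 does so because it defined these populations.

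The 4 barcodes with olig2 came 1 from WT and 3 from the mutant. They were singled out after their values were seen, so what follows describes them only. They held 4, 6, 1 and 2 olig2 UMIs at depths of 3371, 9225, 2032 and 1231 UMIs, and 11.6%, 8.30%, 4.82% and 16.7% of their UMIs came from the 7 genes, while the 152 other main-cluster barcodes ranged from 0.4% to 10.8%. The mature myelin genes plp1b (38275 CPM), cd59 (28753 CPM), mbpa (13809 CPM) and cldnk (3657 CPM) were high. Mbpb, the second myelin basic protein gene, had 2, 6, 0 and 1 UMIs, 568 CPM in all. The whole main cluster held it at 10413 CPM in WT and 7265 in the mutant. Not 1 UMI of egr2b, pou3f1, s100b, gldn, plp1a or pmp22b was found in them, where 3 UMIs would have been 189 CPM. They were not alone in this: 5 of the other 152 barcodes, 1 from WT and 4 from the mutant, also held no UMI of these 6 genes, at depths of 523 to 2513 UMIs and with 0.995% to 6.50% of UMIs from the rule genes. These were not all alike, since the WT one held 14 mbpb and 2 plp1b UMIs. The WT barcode at 10.8%, of 840 UMIs, held just 1 UMI of the 6 genes, of pmp22b. It had 34 plp1b, 36 cd59 and 1 mbpb UMIs. Over all 152, pmp22b, which encodes a protein of compact peripheral myelin, stood at 6706 CPM. It was not confined to myelin-gene barcodes. Barcodes not chosen held it at 2334 CPM in WT and 2122 in the mutant in a cluster led by collagen genes. In a cluster with cdh5 among its leading genes it stood at 2966 and 2251 CPM.

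Of the 184 genes with at least 10 UMIs over the 4 barcodes and found in at least 3 of them, the highest ratios to the other 152 were those of zgc:153981 (35 UMIs against 1, log2 ratio 10.04, interval 7.47 to 15.4), pou3f3a (11 against 1, 8.37, interval 5.59 to 13.8), the tetraspanin gene cd82a (37 against 5, 7.80) and dhrs12la (100 against 16, 7.56). Jam2a, a junctional adhesion molecule gene, had 12 UMIs against 3. Vim, the gene of the intermediate filament vimentin, had 99 UMIs in the 3 mutant barcodes and none in the WT one. Absent from them but frequent in the other barcodes were scn4ab, a sodium channel gene (1976 CPM), ahnak (1863 CPM) and the matrix gene sparc (999.6 CPM). These 4 barcodes were picked by an olig2 UMI from barcodes chosen by myelin genes, so finding olig2 and myelin genes together in them follows from the choice.

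The main cluster also took in 39 barcodes that the rule had not chosen, 23 from WT and 16 from the mutant. With finer clustering (resolution 2) most of these 39 lay outside it. They were of like depth, with a median of 2317 UMIs, but 25 of them had none of the 7 genes. Egr2b, s100b and mag had no UMI in them, and mbpa stood at 97.8 CPM. Foxd3 stood at 995 CPM in them, present in 25 of 39 barcodes, sox10 at 546 CPM and pou3f1 at 220 CPM. Their leading genes against the chosen barcodes included the myelin-related gene pmp22a (706 CPM in WT and 765 in the mutant, against 17.4 and 26.6 CPM) and the matrix protease gene mmp17b (1874 and 1728 CPM). CSPG4 (487 and 395 CPM), a proteoglycan gene, was another and is in both the precursor list and the mesenchyme and mural list. The precursor list summed to 1351 CPM in WT and 1160 in the mutant in these 39, against 165 and 152 CPM in the chosen barcodes. For the mesenchyme and mural list the sums were 2227 and 2889 CPM, against 686 and 879 CPM. Pmp22b was shared by both sets, at 3946 CPM in these 39. The compact myelin list summed to 13243 CPM in WT and 13307 in the mutant in them, against 1900 and 2408 CPM in all barcodes not chosen. Of these sums in the 39, pmp22b alone gave 3725 CPM in WT and 4395 in the mutant.

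Genes outside the rule that led the myelin-gene barcodes over all barcodes not chosen were ranked by the smaller of the 2 libraries' ratios. Of 2936 genes with at least 50 UMIs, 506 (17.2%) were at least 2-fold higher in both libraries over all 206 barcodes. The first was mbpa, the other myelin basic protein gene, at 4697 CPM in WT and 4351 in the mutant, a ratio of 649 and 575. Next came tlcd1 (53 and 56 UMIs, against 3 and 2 UMIs in all barcodes not chosen), plp1a (70 and 105 UMIs against 1 and 6), si:ch211-125c23.3 (391 and 244 CPM) and trim63a, a muscle-type ubiquitin ligase gene (131 and 106 CPM). Mag, which encodes a glial adhesion protein facing the axon, was 175.5 and 174 times higher. Pou3f1 was 97.3 and 151 times higher, and gjb1a, a connexin gene, 92.9 and 95.8 times. The other genes of the first 20 were ENSDARG00000056910, timd4, si:ch211-77g15.32, ENSDARG00000111408, fabp2, depdc7a, si:ch211-234p6.5, cd59b, chrna11, rgl3a, si:ch211-214p13.3 and si:rp71-19m20.1, with smaller ratios between 73.6 and 255. These genes were correlated with the rule by the choice of barcodes, so the ranking is a description. In the main cluster, itself part of the 206, 19 of the 20 stayed in the first 20. Mbpa was 1405 and 1134 times higher there, and mag 390 and 335 times.

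Compact myelin genes were abundant in the main cluster. The 30 matched genes of the list summed to 59406 CPM in WT and 51066 in the mutant, genes of the rule included. The 24 matched genes that the rule had not used summed to 25814 and 22715 CPM, against 1679 and 1820 CPM in barcodes not chosen. Of these, 9 had enough UMIs to test, and all 9 were at least 2-fold above the barcodes not chosen in both libraries, where 43.2% of all genes tested were. Among the genes named here, the order in WT was mbpb (10413 CPM), mbpa (10161), pmp22b (7134) and cd59 (7056), and the intervals of the first pair overlapped, as did those of the last pair. Below them came gpm6ab (3509 CPM), plp1b (3478), the tetraspanin gene cd9b (2015), zwi (1793) and cd81a (1133). In the mutant the order was mbpa (8578 CPM), mbpb (7265), plp1b (6268), cd59 (5940) and pmp22b (5925), and the last 3 had overlapping intervals. These levels are UMIs captured at the poly(A) tail and were not divided by length, so the order between genes is one of captured messages.

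Single barcodes varied widely. Per 10000 UMIs, mbpb ranged from 5.10 to 344 in WT with a median of 80.8, and from 0 to 234 in the mutant with a median of 53.5. Mbpa ranged from 0 to 245 in WT (median 83.8) and from 3.98 to 240 in the mutant (median 74.7). Plp1b ranged from 0 to 405 in WT (median 22.5) and from 0 to 609 in the mutant (median 48.3). The ranges of the libraries overlapped for each of these genes, with the highest mbpb value in WT and the highest plp1b value in the mutant.

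Between the libraries, mbpb was lower in the mutant, at 7265 CPM (interval 6942 to 7598) against 10413 CPM (10000 to 10838) in WT, a log2 ratio of -0.52 (-0.61 to -0.43). It was lower in the mutant barcodes not chosen as well (21.9 against 35.8 CPM, log2 -0.71). Mbpa (log2 -0.24), pmp22b (-0.27), cd59 (-0.25), gldn (-0.35) and cldnk (-0.38) had smaller differences, and zwi (-0.06, interval -0.25 to 0.14), gpm6ab (-0.08, -0.22 to 0.06) and cd81a (-0.02, -0.27 to 0.22) had intervals that included 0. Plp1b went the other way, at 6268 CPM against 3478 CPM (log2 0.85, 0.73 to 0.97), and was also higher in the mutant barcodes not chosen (554 against 171 CPM, log2 1.70). Without the 4 olig2 barcodes, 3 of which are mutant, plp1b was at 0.57 and cldnk at -0.58, in a comparison where 5.33% of 1258 genes were at least 2-fold higher and 4.69% lower. The tetraspanin gene tspan2a was at -0.75 (-1.27 to -0.24; 352 and 209 CPM), while cnp had 6 UMIs in each library and gpm6aa 1. None of the 15 tested compact myelin genes passed 2-fold, against 5.21% of all genes tested that were higher and 4.75% that were lower in the mutant (9.96% either way). The median of the list was -0.15, beside -0.0039 for all 1305 genes.

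**Figure D4:**
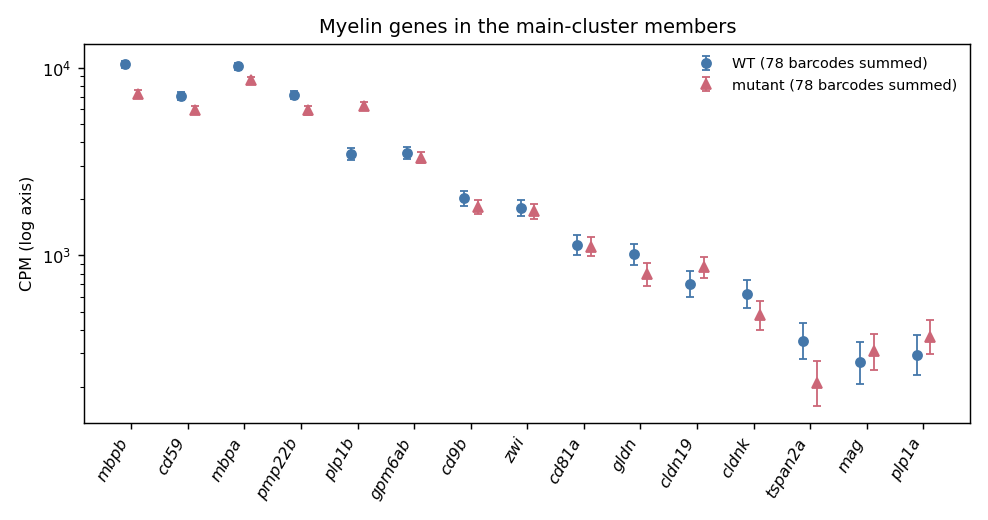
Level in CPM (vertical, log axis) of 15 myelin genes in the main-cluster barcodes, UMIs of 78 barcodes summed per library, with 95% exact Poisson intervals; circles are WT and triangles mutant. Mbpb is lower in the mutant and plp1b is higher, from 3478 to 6268 CPM.

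Genes of axon-glia contact were led by gldn, at 1012 CPM in WT and 792 in the mutant; gliomedin, its product, gathers sodium channels at the nodes of Ranvier of peripheral nerve. Nfasca, a neurofascin gene, stood at 543 and 601 CPM, and cadm4, an adhesion gene of the internode, at 508 and 849 CPM (log2 0.74, 0.41 to 1.08; -0.06 in barcodes not chosen). Hormone barcodes held cadm4 at 675 CPM, about the level here. The other contact genes were lower, from 82.5 CPM for cntn1a and cadm1a to 187 CPM for jam3b in WT, with cadm1b and ncam1b between them and ncam1a and l1cama at 47.8 CPM. Mag stood at 269 and 308 CPM. Of 31 matched genes 8 were tested, and the median was -0.02. None passed 2-fold, where 9.96% of all genes tested did either way. Cldn19, a claudin gene of the compact myelin list, stood at 708 CPM in WT and 864 in the mutant (log2 0.29, -0.01 to 0.59). Map4l, of the cytoskeleton and signalling list, stood at 456 and 438 CPM (log2 -0.06, and -0.66 without the olig2 barcodes). Of the list's 34 matched genes 8 were tested and none passed 2-fold, beside the same 9.96% of all genes.

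Lipid genes were expressed unevenly. Fatty acid and sphingolipid genes summed to 4585 CPM in WT and 3981 in the mutant, against 942.5 and 1113 CPM in barcodes not chosen, and 8 of 11 tested were at least 2-fold above those in both libraries (43.2% of all genes tested were). The list included scdb, a desaturase gene (960 and 780 CPM), the elongase gene elovl1b (703 and 769 CPM), ugt8, which encodes the enzyme that makes galactosylceramide of myelin (538 and 422 CPM), and sgms1a, a sphingomyelin synthase gene (417 and 263 CPM, log2 -0.67, -1.14 to -0.21). Elovl1a was at -0.95 (-1.76 to -0.17). None of the 11 passed 2-fold between the libraries, where 9.96% of all genes tested did. The median of -0.35 stood beside 0.24 for the same genes in barcodes not chosen. Sterol synthesis genes were sparse: 35 were matched, 8 were at 0, and only ldlra and abca1a were tested. Abca1a, a cholesterol exporter gene, was 1 of the few listed genes past 2-fold, at 449 against 217 CPM (log2 1.05, 0.56 to 1.56; 0.65 in barcodes not chosen).

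Of 28 matched genes for lactate and energy supply, 6 were tested and 1 passed 2-fold, where 9.96% of all genes tested did. This was glulb, a glutamine synthetase gene, at 457 against 222 CPM (log2 1.04, 0.56 to 1.55). Its log2 ratio was 0.74 in barcodes not chosen and 0.91 without the olig2 barcodes. Gapdhs, a glycolysis gene, stood at 478 CPM in WT and 662 in the mutant. Of 28 matched iron and antioxidant genes, 2 were tested, the ferritin genes fth1a (log2 -0.05) and fthl27 (-0.70), and neither passed 2-fold.

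Cholecystokinin receptors were hardly read. CCKAR had 1 UMI in the mutant and none in WT among the 156 barcodes, cckbra had 2 UMIs in 2 barcodes, and CCKBR had 1 UMI. In hormone barcodes 0.626% held a cckbra UMI and 0.861% a CCKBR UMI, and in all barcodes not chosen cckbra stood at 5.81 and 16.3 CPM against 4.34 and 3.81 CPM here. These counts were too few to compare the libraries. Of the 37 hormone receptor and related genes matched, 11 had a UMI in at least 10% of main-cluster barcodes of either library and 5 were at 0. The thyroid hormone receptor gene thrb stood at 78.2 CPM in WT and 190 in the mutant (18 and 50 UMIs, log2 1.28, 0.48 to 2.15), and in barcodes not chosen the log2 ratio was 0.88. Hormone barcodes held thrb at 210.5 CPM in WT, above the level here. The glucocorticoid receptor gene nr3c1 stood at 161 and 198 CPM, the mineralocorticoid receptor gene nr3c2 at 200 and 126 CPM, and insrb, an insulin receptor gene, at 135 and 251 CPM. The insulin-like growth factor receptor genes igf1ra (17 and 15 UMIs) and igf1rb (28 and 18), insra (14 and 13), the vitamin D receptor gene vdrb (15 and 20) and the retinoid receptor genes rxraa (33 and 13), raraa (11 and 7) and rarab (3 and 11) had too few UMIs to test, as had ar, thraa and crhr1. Of the 4 genes tested, thrb alone passed 2-fold (without the olig2 barcodes insrb at 1.06 and nr3c2 at -1.02 also did), where 9.96% of all genes tested did. In the mutant 1 barcode held 34.0% of the thrb UMIs, and over all 206 barcodes thrb was at 0.57. In the main cluster the median of the list was 0.60 beside 0.50 for these genes in barcodes not chosen.

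Immediate early and heat shock genes took up a large part of the messages. The 39 matched genes, egr2b among them, summed to 50847 CPM in WT and 51759 in the mutant, against 22673 and 35819 CPM in barcodes not chosen, and per barcode they took a median of 5.03% of UMIs in WT and 3.76% in the mutant. Fosab, a Fos gene, stood at 14251 CPM in WT and 12543 in the mutant, more than any myelin gene. Socs3a, a feedback inhibitor of cytokine signalling, stood at 5740 and 5225 CPM, and jun at 3556 and 3794 CPM. In the 39 barcodes of the cluster that were not chosen the list was higher still, at 87027 and 120430 CPM, whereas in the 4 olig2 barcodes fosab stood at 441 CPM. Between the libraries, 29 genes were tested, egr1 was past 2-fold higher (log2 1.52, 0.91 to 2.17) and gadd45bb past 2-fold lower (-1.04, -1.50 to -0.59) in the mutant, a smaller part of the list than the 9.96% of all genes tested. Of the egr1 UMIs in the mutant, 34.7% lay in 1 barcode. The median of the list was -0.02, while the same genes had a median of 0.71 in barcodes not chosen. Nr4a2b, a nuclear receptor gene, stood at 1585 CPM in WT and 1016 in the mutant, against 15.1 and 14.9 CPM in barcodes not chosen.

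Across all genes the libraries differed in both directions about equally. Of the 1305 genes with at least 50 UMIs in the main cluster, 68 (5.21%) were at least 2-fold higher and 62 (4.75%) at least 2-fold lower in the mutant. For 426 genes the counting interval of the ratio did not include 0. The same 1305 genes had a median log2 ratio of 0.27 in barcodes not chosen. Over all 206 barcodes, 252 of 2936 genes (8.58%) were at least 2-fold higher and 192 (6.54%) lower.

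Among genes with at most 20% of their UMIs in 1 barcode, the one furthest down in the mutant was ifi27.4, of an interferon-induced family. It had 145 UMIs in 39 of 78 WT barcodes and 36 UMIs in 16 of 78 mutant barcodes, 630 against 137 CPM (log2 -2.20, -2.77 to -1.67). In barcodes not chosen its log2 ratio was -0.58. The transcription factor gene irf1b had 139 UMIs in 40 WT barcodes and 44 UMIs in 16 mutant barcodes, 604 against 167 CPM (log2 -1.85, -2.37 to -1.35), with -0.23 in barcodes not chosen. In WT, 5 barcodes held 38.9% of its UMIs, and in the mutant 5 held 68.2%. Apol, an apolipoprotein L gene, had 74 and 27 UMIs (log2 -1.65, -2.34 to -0.99; -0.13 in barcodes not chosen), and rnf213a 36 and 14 UMIs (-1.55). Over all 206 barcodes ifi27.4 was at -1.71, apol at -1.55, irf1b at -0.65 and rnf213a at -0.61. After thinning to 1000 UMIs, 32.1% of WT and 11.8% of mutant barcodes were expected to hold an ifi27.4 UMI, and 30.5% and 7.93% an irf1b UMI.

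Of the list of MHC class I processing and interferon genes, 34 were matched and 6 tested in the main cluster. Irf1b and mhc1uba were past 2-fold lower, where 4.75% of all genes tested were, and none was higher. The median was -0.74, beside -0.08 for the same genes in barcodes not chosen. Mhc1uba, a class I antigen gene, stood at 517 CPM in WT and 232 in the mutant (log2 -1.15, -1.62 to -0.70), and was lower by as much in barcodes not chosen (-1.16). B2m, the light chain gene, was at -0.67 (-1.02 to -0.32), mhc1zba at -0.81 (-1.36 to -0.28), stat1a at -0.34 (-0.57 to -0.11) and b2ml at 0.01 (-0.18 to 0.19). Over all 206 barcodes none of these genes passed 2-fold, and the scattered barcodes held irf1b at 14.2 CPM in WT and 189 in the mutant. Ifi44f4, named after an interferon-induced family, was higher in the mutant (43 against 14 UMIs, log2 1.43, 0.53 to 2.41; 1.51 in barcodes not chosen).

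The other genes at the low end of the ranking were scg3, a secretory granule gene (log2 -1.63, and -0.74 in barcodes not chosen), smad1, a transducer of bone morphogenetic protein signals (54 and 20 UMIs, -1.62; 0.39 in barcodes not chosen), dusp6, an inhibitor of ERK signalling (-1.51), the fatty acid binding protein gene fabp3 (-1.51), the small GTPase gene rhoca (-1.51) and ENSDARG00000083519 (-1.50). At the high end stood hif1al (8 and 42 UMIs, 2.2, 1.09 to 3.50), ppap2d (13 and 63 UMIs, 2.09), the tensin gene tns2a (26 and 107 UMIs, 1.85), the transcription factor gene klf4 (15 and 61 UMIs, 1.83), hipk2, a kinase gene (1.76), stip1, a co-chaperone gene (1.57), the transporter gene slco3a1a (1.55), si:ch211-250g4.3 (1.55) and PURA (1.47). None of the 10 low genes was past 2-fold lower in barcodes not chosen, and of the 10 high genes ifi44f4 alone was past 2-fold higher there. Few genes were: of all 1305 genes tested, 20 were past 2-fold lower and 58 past 2-fold higher in barcodes not chosen. Hif1al was at 0.98 there. Over all 206 barcodes, which include the main cluster and so share its UMIs, 11 of the 20 genes at either end were past 2-fold the same way. Dusp6 (0.05) and rhoca (0.11) had the other sign there, while stip1 was at 0.38, PURA at 0.36, ENSDARG00000083519 at -0.85, hipk2 at 0.97 and slco3a1a at 0.98.

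**Figure D5:**
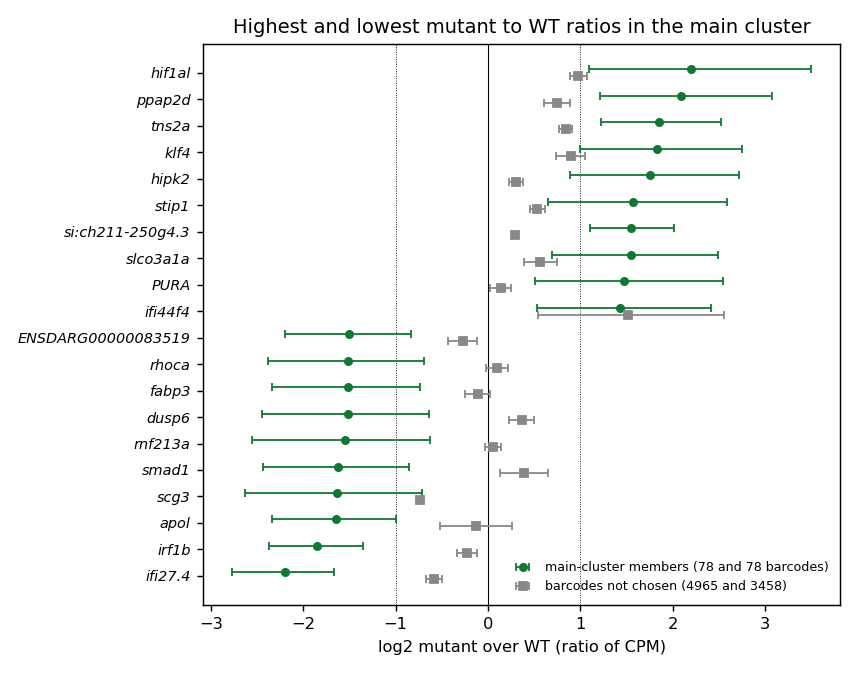
Log2 ratio of mutant to WT CPM (horizontal axis) for the 10 highest and the 10 lowest genes of the main cluster, with 95% exact counting intervals; green circles are the main-cluster barcodes, grey squares the barcodes not chosen, and dotted lines mark 2-fold. The main-cluster values run from -2.2 to 2.2, and most grey squares lie between the dotted lines.

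Over all 206 barcodes the ranking held genes of the scattered barcodes too. Of its 20 genes, 5 had at least 50 UMIs in the main cluster, which is part of the 206. Of these, 4 were past 2-fold the same way there: ifi27.4, ppap2d (2.02 over all 206), klf4 (1.91) and ifi44f4. The remaining 15 had fewer UMIs there, too few to test. Kalrnb, a gene of a guanine nucleotide exchange factor, was the lowest (52 UMIs in WT and 9 in the mutant, log2 -2.60, -3.81 to -1.57), and 41 and 3 of these UMIs lay in the main cluster. Its log2 ratio in barcodes not chosen was 0.20. Fam117bb (9 and 47 UMIs, 2.31), siah2l (11 and 45, 1.96) and mark3b (17 and 69, 1.95) were among the highest, with 31, 28 and 39 UMIs in the main cluster. Trib1, snap25a, hspd1 and lsr were among the lowest of all 206 and had too few UMIs in the main cluster to give a ratio. Prkcz (-2.05) was at -1.10 in the main cluster with an interval of -2.54 to 0.23, and pik3r3b (-1.91) was at -0.61 (-2.41 to 1.11). The rest were sumo3a (-1.82), fxyd6l (-1.58), zgc:162730 (1.92, and 0.90 in the main cluster), mcf2l2 (1.76), pafah1b1a (1.71) and tpm1 (1.70).

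The lists gave other counts over all 206 barcodes, where 8.58% of genes tested were past 2-fold higher and 6.54% lower. Of 33 immediate early and heat shock genes tested, egr1, btg2, ier2b and klf6a were higher and hspb1 lower, and the median was 0.38 against -0.02 in the main cluster. In WT 1 barcode held 59.3% of the hspb1 UMIs, and in the mutant 1 held 27.6% of the egr1 UMIs. Of 17 compact myelin genes gpm6bb alone was past 2-fold (1.99), with 45.7% of its mutant UMIs in 1 barcode. Of 11 contact genes ncam1b was lower (-1.02), and of 13 cytoskeleton and signalling genes maptb was lower (-1.47) and erbb2 higher (1.08). Of 9 iron and antioxidant genes slc40a1 (2.07, 66.7% of its mutant UMIs in 1 barcode) and gclc (1.06) were higher and gpx4a (40 and 21 UMIs) lower. Of 15 energy supply genes slc16a1a (2.18) and glulb (1.06) were higher, and of 11 receptor genes thraa was lower (-1.49) and none higher. Abca1a was at 1.27. Of 11 radial glia and pituicyte genes 6 were higher, led by ptgdsb.2 (1 and 91 UMIs, 59.3% of the latter in 1 barcode). The top mutant barcode of each gene held 66.5% of its UMIs for cyp26b1, 61.7% for cyp19a1b and 42.6% for ptgdsb.1. For vim it held 31.9% and for her6 19.6%.

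Messages of neurons, endothelium, macrophages, T and NK cells and mesenchyme were lower than in all barcodes not chosen. Of the 25 matched neuron genes none had a UMI in 10% of main-cluster barcodes and 12 were at 0, and of 17 endothelial genes none and 11. The neuron list summed to 73.8 CPM in WT and 293 in the mutant, the endothelial list to 39.1 and 26.6 CPM, the T and NK list to 69.5 and 38.1 CPM, the microglia and macrophage list to 525 and 122 CPM and the mesenchyme and mural list to 686 and 879 CPM. In barcodes not chosen each of these lists was higher, with 874 and 1501 CPM for the neuron list and 2015 and 2206 CPM for the microglia and macrophage list. Those barcodes include clusters with collagen genes or cdh5 in the lead, so this cannot show that such messages are low here. Hormone barcodes held more of the neuron list (1665 and 2133 CPM). They held less of the macrophage (234 and 69.55), mesenchyme (249.5 and 281), T and NK (63.3 and 21.6) and endothelial (17.3 and 22.1 CPM) lists. In the macrophage list cd74a was lower in the mutant (43 and 9 UMIs, log2 -2.45), with 67.4% of its WT UMIs in 1 barcode. In the mesenchyme list notch3 was higher (11 and 43 UMIs, 1.78), with 67.4% of its mutant UMIs in 1 barcode. Of the radial glia and pituicyte list, 21 genes were matched and 8 were found in at least 10% of barcodes, and the whole list summed to 2275 CPM in WT and 2767 in the mutant, near the 2189 and 2761 CPM of barcodes not chosen. The list includes s100b and vim, and barcodes with at least 3 pituicyte genes held s100b at 8.01 CPM. Vim was higher in the mutant (757 against 369 CPM, log2 1.04), but at 0.09 without the olig2 barcodes.

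Growth hormone messages were read in most myelin-gene barcodes. The 3 hormone genes tested were all past 2-fold lower in the mutant, where 4.75% of all genes tested were. Gh1 stood at 2575 CPM in WT and 864 in the mutant in the main cluster (log2 -1.58), with a UMI in 96.2% and 89.7% of barcodes, and at 51372 and 27854 CPM in barcodes not chosen. Prl was at -1.24 and pomca at -1.06 (-0.68 and -0.29 in barcodes not chosen). Of 7 red blood cell genes tested 3 passed 2-fold lower and none higher, where 4.75% of all genes tested were lower and 5.21% higher, with the globin genes hbaa2 and hbba2 at -2.72 and -2.46 against -1.71 and -1.47 in barcodes not chosen. In WT, 1 barcode held 77.0% of the hbaa2 UMIs and 1 held 61.8% of the hbba2 UMIs. The whole list summed to 19757 CPM in WT and 12551 in the mutant. The part of this difference in the ratios of other genes was not tested. No barcode sequence among the members was shared by both libraries, which had 11 sequences in common.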

How the data were processed

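Pituitary cells were profiled with the 10x Genomics droplet system, 1 library from WT and 1 from cck1-/-;cck2-/- fish. The authors deposited raw UMI counts per gene (32057 features) and barcode; Cell Ranger, Seurat and the GRCz11 build are named in the submitters' processing notes. The counts were used as deposited. Cell barcodes were 20 letters long in the files. Kept WT and mutant barcodes numbered 5070 and 3559, with medians of 879 and 983 UMIs and totals of 22217319 and 15744276 UMIs. Replicates could not be compared, since each group had 1 library.

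UMIs were summed per library over the chosen barcodes and scaled to counts per 1000000 UMIs (CPM), with exact Poisson intervals; shares had exact Clopper-Pearson intervals at the 95% level and log2 ratios exact conditional binomial intervals. A gene entered the ratios when the libraries together held at least 50 of its UMIs, and was called at 2-fold; a library at 0 entered with 3 counts. Shares were also thinned to 1000 UMIs, over the barcodes that had at least that many. Clusters came from Leiden (resolution 1; 2000 variable genes, 30 components, 20 neighbours; scanpy 1.11.5, leidenalg 0.10.2, Python 3.11.15, scipy 1.17.1), without the rule, hormone and mitochondrial genes. Hormone barcodes had at least 5% of UMIs from hormone genes, and pituicyte-type barcodes at least 3 pituicyte genes. Scrublet marked 0 doublets in both libraries on its own threshold, so none were removed in the main results, and an alternative removed the highest 206 and 101 scores (0.8% per 1000 barcodes). The ratio and its interval were tested on simulated data.

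Members and gene lists were chosen with earlier results of these data known. Of 581 listed genes, 463 matched by symbol, 30 through a gene name table, 20 by a capital symbol, and 68 did not match and were not used. Values of 1 gene of the rule are not reported here. Rows with a repeated symbol (3413) entered by their IDs only. Named genes were the 7 of the rule, genes of the myelin, regulator, contact and receptor lists found in at least 10% of members, the 20 leading genes, and the 10 highest and 10 lowest ratios with at most 20% of UMIs in 1 barcode, without hormone and mitochondrial genes; genes of the olig2 barcodes were chosen after their values were seen. Other settings changed the rule, filters, weights, minimum, fold and resolution; leaving out the olig2 barcodes was added after seeing the data.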

Additional observations from a re-analysis of the deposited data

How the results depend on the processing

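No paired analysis was possible because each group had 1 library. The share of kept barcodes was 6.1% in WT and 6.13% in the mutant with 2 of the 7 genes required, 1.5% and 2.22% with 4, 4.28% and 5.29% among barcodes with at least 500 genes, and 1.54% and 2.19% in the main cluster; other filters kept it within the interval. The 7 genes summed to 16604 (WT) and 15514 (mutant) CPM. With 2 genes required this was 2998 and 4378 CPM, with 4 it was 30281 and 23331, without the highest doublet scores 16230 and 15902, without barcodes of at least 5% hormone UMIs 28720 and 19806, in the main cluster 34603 and 29143, there without the olig2 barcodes 33390 and 26322, without the deepest barcode of each library 18031 and 16707, with each barcode weighted equally 24786 and 25075, and with hormone and mitochondrial genes out of the totals 18944 and 17215. The mutant was thus higher with 2 genes required and with equal weights, and lower in the other settings. Genes at least 2-fold higher or lower in the mutant numbered 252 and 192; with 4 genes required they were 103 and 70, without hormone barcodes 157 and 105, in the main cluster 68 and 62, there without the olig2 barcodes 67 and 59, with a minimum of 20 UMIs 744 and 653, of 100 UMIs 95 and 65, of 1 UMI 3656 and 3907, and at 1.5-fold 554 and 481. With 2 genes required 1284 were higher, and with equal weights 364 were lower. Of 504 values of 43 single genes under alternatives, 407 stayed within the interval, 96 moved beyond it, and snap25a, past 2-fold lower over all 206, changed sign, to 1.49 with 2 genes required; the cause was not tested. In all, 22 of the values, of 8 genes, had the other sign, and dusp6 and rhoca were each at -1.51 in the main cluster. At resolutions 0.5 and 2 the main cluster held 157 and 156 members. It held 197 and 158 barcodes in all, so at resolution 2 most of the 39 not chosen lay outside it. With hormone barcodes as the comparison, 10 of the 20 leading genes stayed among the first 20. A median of 2430 UMIs per main-cluster barcode limits what can be said of single regulators in single barcodes.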
